A study of Homo sapiens with 4 samples.

Results

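Loci that end their transcripts at exactly 3 poly(A) regions were examined in DICER(ex5) cells. This colon cancer line derives from HCT116 and is labelled a DICER hypomorph, that is, its DICER function is reduced. A poly(A) region is a short stretch of the genome where reads of transcript 3' ends pile up. Regions of a strand were joined into a locus when the next began within 5000 bases of the last. A region was kept with 10 or more reads, all 4 libraries added, and 5% or more of the reads of its locus. Of 17963 loci, 1299 had exactly 3 kept regions, and the 1293 of them with 100 or more kept reads are the loci described here. They held 3879 of the 31081 regions of the table. The loci were thus chosen by their read counts, and the summed shares describe what was chosen. The order of the regions along the transcript took no part in the choice. Differences between libraries were not used as such. A region could still meet the minima through the libraries where it was high.

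The study sequenced poly(A) sites from 4 libraries of this single line, with the same hypomorphic DICER status in each and no parental line or treatment. The design text calls them biological replicates, but no label names a culture day or batch, so the spread between libraries may be partly technical. No annotation or genome of the build used, hg19, was used here. Loci are therefore named by position, the genes at these loci and the markers of colon epithelium were not checked, and no sequence of a region is printed. A locus may hold the ends of neighbouring genes.

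The 3' end of an mRNA is made by cleavage of the nascent transcript, downstream of a signal read by the cleavage and polyadenylation machinery, followed by addition of a poly(A) tail. Many genes carry several such sites, and the choice among them is called alternative polyadenylation. Where the sites lie in tandem in a last exon, use of an upstream site leaves a shorter 3' end that can lack binding sites of microRNAs and RNA-binding proteins. Where a site lies in an intron or an earlier exon, its use can change the encoded protein. Mature microRNAs are released from their hairpin precursors by Dicer, a ribonuclease. In the text, the 5' region is the most upstream of the 3 on the transcript, the 3' region the most downstream, and the middle region lies between them.

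The libraries held 2163977 to 5713530 reads, and the 3-region loci took 9.88% ± 0.0365 of them (SD, n = 4). A locus had a median of 637 kept reads over all libraries, with quartiles of 350 and 1276 and a maximum of 39700. No locus was without kept reads in a library, and 530 had 100 or more in every library. Libraries 1 and 2 resembled each other, as did libraries 3 and 4, while usage in the first pair differed from that in the second at many loci. The comparison of libraries further on gives those values. The SD over 4 libraries includes this division, for which the labels give no batch.

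Usage rose from the 5' to the 3' region. The median share of kept reads at the 5' region in libraries 1 to 4 was 20.4%, 20.8%, 19.8% and 19.4%. The middle region had medians of 26.9%, 27.3%, 26.4% and 27.0%, and the 3' region 33.3%, 32.9%, 34.0% and 34.4%. The 3 sets of values did not overlap. The 3' region exceeded the 5' region by 13.6 ± 1.25 percentage points, the 3' region exceeded the middle one by 6.77 ± 0.876, and the middle one exceeded the 5' region by 6.81 ± 0.560 (SD, n = 4). Each difference was positive in 4 of 4 libraries. An exact sign-flip permutation test over the libraries, two-sided, gave p = 0.12 for each of the 3 differences, also after Benjamini-Hochberg adjustment. This is the smallest p that 4 libraries allow, so no difference of this kind can pass 0.05.

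**Figure D1:**
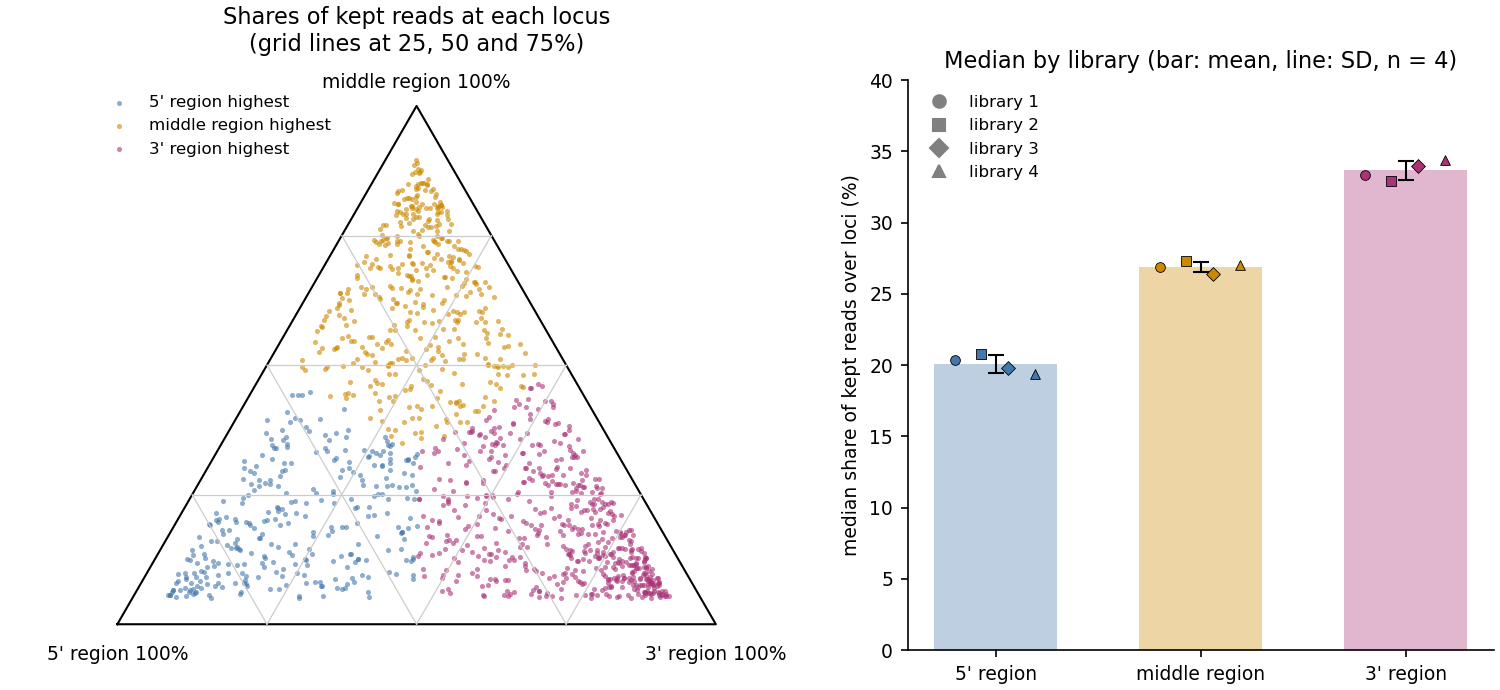
Left, each point is 1 of the 1293 loci, placed by its shares of kept reads (libraries summed) in the 5', middle and 3' region, with colour for the region that has the most reads (5 loci with a tie are drawn with the more upstream region). Right, the median share (%) over loci in each library (points), with the mean and SD of the 4 libraries; the points lie from 19.4% to 20.8% for the 5' region and from 32.9% to 34.4% for the 3' region.

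Single loci spread widely around these medians. With the libraries summed, the middle 50% of loci had a 5' share of 10.1% to 38.5%, a middle share of 12.9% to 51.1% and a 3' share of 15.6% to 61.0%. A share under 10% was found at 313 loci (24.2%) for the 5' region, 228 (17.6%) for the middle region and 188 (14.5%) for the 3' region. At the other end, the 3' region took 80% or more of the reads at 105 loci, the middle region at 55 and the 5' region at 40. No share can exceed 90%, because the other regions of a locus each hold at least 5%. Summed over all reads of the 1293 loci, the positions were less unequal: 29.7% ± 1.32 of the reads fell in 5' regions, 31.0% ± 0.396 in middle regions and 39.3% ± 0.939 in 3' regions (SD, n = 4).

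Most loci had a dominant region. The strongest region took a median of 63.2% of the kept reads, the next 24.95% and the weakest 10.5%. The strongest region held 50% or more of the reads at 1003 loci (77.6%) and 80% or more at 200 (15.5%). An even division was less common: every region held 20% or more at 201 loci (15.5%) and 25% or more at 83 (6.42%). For comparison, the strongest region took a median of 79.9% at the 2971 loci with 2 kept regions and 46.2% at the 806 with 4 or more. These medians follow in part from the number of regions that divide the reads.

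The dominant region could lie at any of the 3 positions. The 3' region was the strongest at 43.2% of loci, the middle region at 32.8% and the 5' region at 24.1%, with ties shared. By library, the share of loci with the 3' region strongest was 42.6%, 41.3%, 42.6% and 43.8%. For the middle region it was 34.0%, 33.7%, 33.0% and 32.6%, and for the 5' region 23.5%, 25.0%, 24.3% and 23.6%. These values of the positions did not overlap either.

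Of the 6 possible orders of usage, the stepwise rise from the 5' through the middle to the 3' region was found at 312 loci (24.1%). The stepwise fall in the other direction was found at 159 (12.3%). The middle region was the lowest of the 3 at 392 loci (30.3%), of which 243 had the 3' region highest and 149 the 5' region highest. The 5' region was the lowest at 530 (41.0%) and the 3' region at 359 (27.8%). The remaining 12 loci had a tie between regions.

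**Figure D2:**
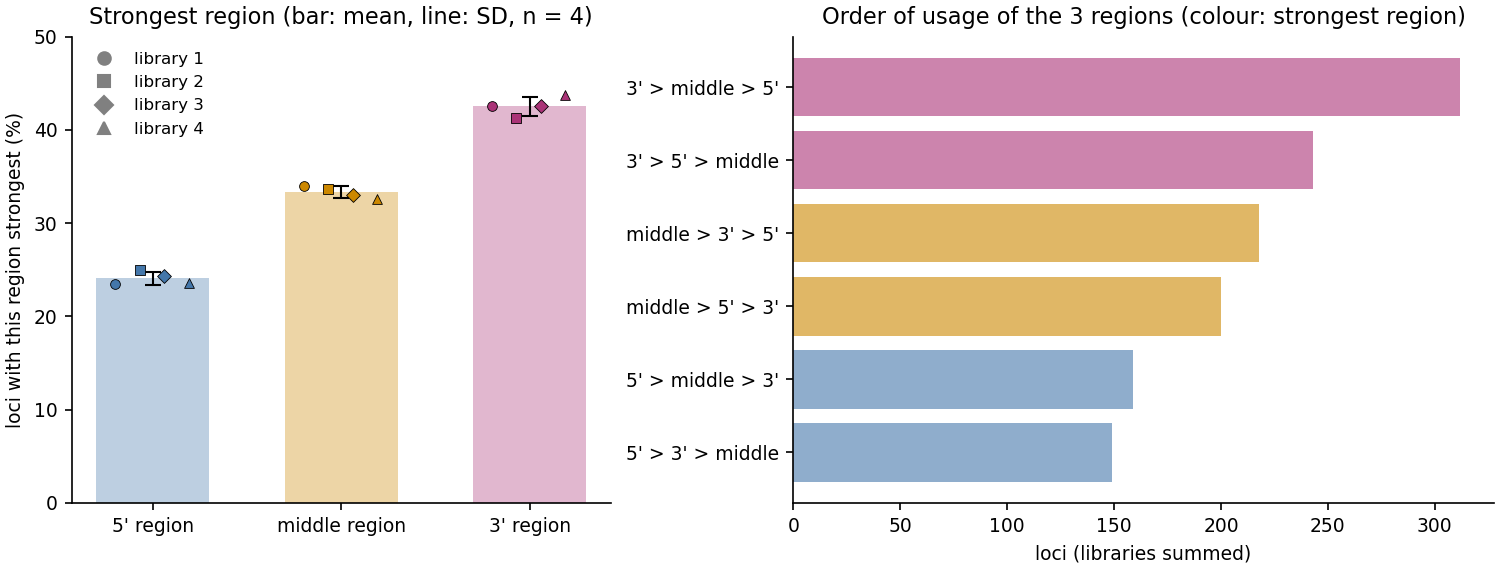
Left, percent of the 1293 loci at which each region had the most reads, in each library (points), with the mean and SD of the 4 libraries; the 3' region lies between 41.3% and 43.8% and the 5' region between 23.5% and 25.0%. Right, number of loci with each order of usage when the libraries are summed, coloured by the strongest region; the rise to the 3' region leads with 312 loci.

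Most loci kept their strongest region in every library. The same region was the strongest in all 4 libraries at 984 loci (76.1%): the 3' region at 438, the middle region at 324 and the 5' region at 222. The full order of the 3 regions was the same in all 4 at 563 loci (43.5%). Depth moved with this agreement. The strongest region was the same in all libraries at 48.0% of the 254 loci with 100 to under 300 kept reads, 80.6% of the 619 with 300 to under 1000 and 86.4% of the 420 with 1000 or more. The SD of the 3' share over libraries had a median of 8.53, 4.53 and 2.94 percentage points in these classes.

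The positional order also held across depth. The median 5', middle and 3' shares were 27.0% ± 0.311, 32.4% ± 1.58 and 33.1% ± 1.13 at loci with 100 to under 300 kept reads (SD, n = 4). At the 108 loci with 3000 or more they were 20.1% ± 0.724, 21.7% ± 0.784 and 34.2% ± 0.785 (SD, n = 4). The middle and 3' shares lay within their spread in the first of these classes, and the 3' share stood above the other shares in the second. In shallow loci the minimum of 10 reads is itself up to 10% of the locus, which keeps weaker regions out and raises the lower shares by construction.

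To compare neighbours without the remaining region, each pair of adjacent regions was taken alone. The middle region held a median of 56.5% ± 1.27 of the reads of the 5' and middle regions together, and the 3' region held 54.3% ± 0.773 of those of the middle and 3' regions (SD, n = 4). At loci with 2 kept regions the downstream region held 60.1% ± 0.710 (SD, n = 4). Against that value, the share of the 3' region differed by -5.79 ± 0.662 percentage points and that of the middle region by -3.58 ± 0.664, lower in 4 of 4 libraries each (SD, n = 4). The order of the means was not the same at every distance. For ends within 100 bases the 3' region held 54.6% ± 2.86 and the middle region 52.5% ± 2.54 of their pairs, against 52.1% ± 1.25 at 2-region loci, and over 1000 bases the middle region held 58.4% ± 3.11 against 57.2% ± 0.705 (SD, n = 4). These exceptions lay within their spread, and over 1000 bases the middle region was the higher in libraries 3 and 4 only. In the remaining comparisons by distance the means of the 3-region loci were the lower. The 3' region held 54.2% ± 2.35 against 63.4% ± 1.48 over 100 to 250 bases (SD, n = 4). Over 1000 bases it held 49.6% ± 1.66 against 57.2% ± 0.705 (SD, n = 4). The exact sign-flip permutation p was 0.12 for each of 3 differences pooled over distance, raw and adjusted, again the smallest that 4 libraries allow. All libraries sampled one set of loci, and the variation from locus to locus is not part of these SDs.

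Spacing was measured between the 3' ends of the regions. The 5' and middle ends lay a median of 576 bases apart (quartiles 189 and 1572), and the middle and 3' ends 669 bases apart (quartiles 206 and 1841). The exact 95% intervals of these medians over loci, 518 to 642 and 594 to 752 bases, overlapped. The first distance was the longer at 616 loci and the second at 675. From the first to the last end, a locus spanned a median of 1856 bases, with a range of 99 to 11206. In comparison, the ends of 2-region loci lay a median of 800 bases apart, and neighbouring ends of loci with 4 or more regions 525 bases.

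The regions were seldom evenly spaced. The shorter of the 2 distances had a median of 235 bases and the longer 1434. The median ratio of the longer to the shorter was 3.71; it was 10 or more at 322 loci (24.9%) and under 2 at 348 (26.9%). At 312 loci (24.1%) a pair of neighbours ended within 100 bases of each other. Both distances were 250 bases or less at 113 loci, and both over 1000 bases at 181. Distances depend on the joining distance, with medians of 264 and 300 bases at the loci found when regions were joined within 1000 bases.

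**Figure D3:**
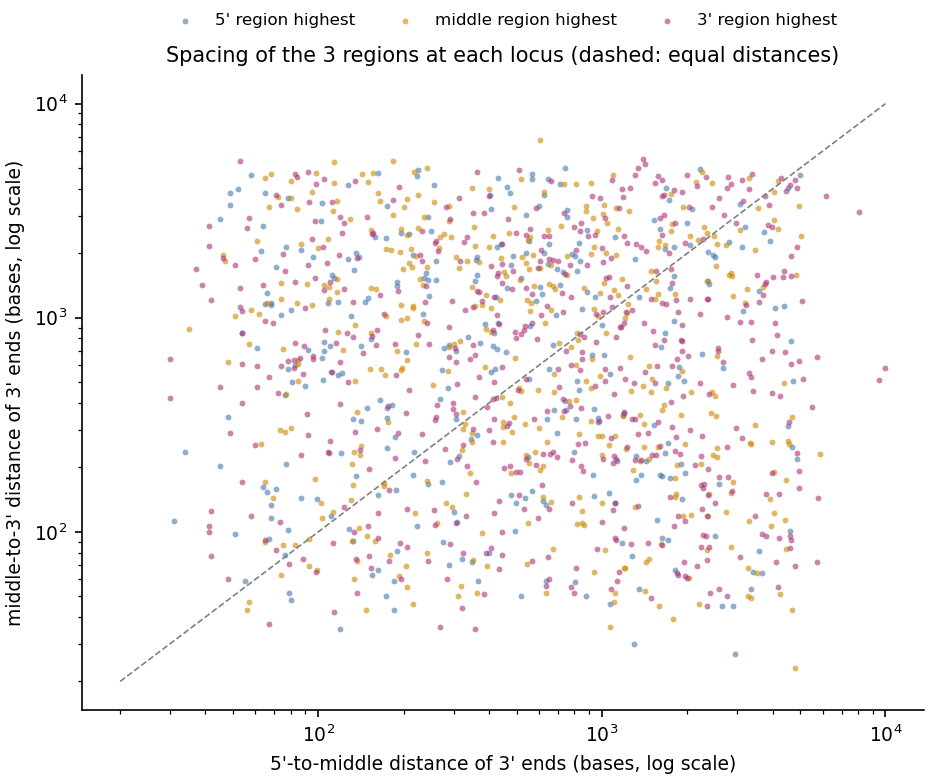
Each point is 1 of the 1293 loci, placed by the distance (bases, log scale) from the 5' to the middle end and from the middle to the 3' end, with colour for the strongest region (ties as before); the dashed line marks equal distances. Points fill both sides of the line, 616 with the longer first distance and 675 with the longer second distance, and all 3 colours appear throughout.

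Usage varied with which neighbour lay far away. At 176 loci the 5' and middle ends were within 250 bases and the 3' end over 1000 bases further downstream. There the 3' region had median shares of 23.7%, 25.6%, 25.5% and 22.1% in libraries 1 to 4, and the middle region was the most used with 32.0% ± 0.438 (SD, n = 4). At 166 loci of the mirror arrangement, with the middle and 3' ends within 250 bases and the 5' end over 1000 bases upstream, the 3' region had 35.5%, 33.7%, 35.3% and 40.8%. The 5' region had 25.4% ± 2.07 in the first arrangement and 17.0% ± 1.64 in the mirror arrangement (SD, n = 4). Taken whole, neither arrangement had its highest median share at the distant region. Split by the shorter distance, with libraries summed, the first arrangement was not uniform. At its 72 loci with the first distance up to 100 bases, the 3' region had the highest median, 32.2%. At the 104 with over 100 to 250 bases it had the lowest, 21.4%. In the mirror arrangement the 5' region was the lowest in both parts.

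The difference in 3' share between these arrangements was 12.1 ± 4.63 percentage points, positive in 4 of 4 libraries (SD, n = 4). The 5' share differed by -8.40 ± 3.53 in the mirror arrangement and was lower in 4 of 4 libraries (SD, n = 4). Exact sign-flip permutation gave p = 0.12, raw and adjusted, for each of 5 differences between spacing classes. Across loci the classes overlapped widely: the middle 50% of 3' shares ran from 12.5% to 48.8% in the first and from 19.0% to 67.7% in the mirror arrangement. The size of this difference depended on the processing: the 3' shares were 28.3% (118 loci) and 34.6% (109 loci) when regions were joined within 2000 bases, 29.1% (130 loci) and 34.0% (118 loci) at a minimum share of 10%, and 12.7% (15 loci) and 40.0% (10 loci) when joined within 1000 bases.

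Among the other arrangements shown, the 3' region was highest where the 5' end lay over 1000 bases upstream and the middle and 3' ends over 250 and up to 1000 bases apart. At these 120 loci its median share was 54.9%, 51.9%, 49.5% and 49.7% by library, and it was the strongest region at 56.7% of them. With the reverse order of distances (180 loci), it had 28.7% ± 1.06, level with the 28.1% ± 0.894 of the middle region (SD, n = 4). The difference between these classes was 22.8 ± 2.53 percentage points (SD, n = 4; exact sign-flip permutation p = 0.12). Where both distances were over 1000 bases the 3' share was 39.6% ± 3.71, and where both were 250 or less it was 26.5% ± 0.476 (SD, n = 4). The highest value, 51.5% ± 2.52 as a mean over libraries, was lower under some settings and higher under others (SD, n = 4). It was 36.5% (96 loci) when regions were joined within 2000 bases, 36.8% (87 loci) at a minimum share of 10%, 41.0% (14 loci) when joined within 1000 bases and 45.8% (114 loci) without regions of 10 bases or fewer. Merging ends within 100 bases gave 44.9% (147 loci), and 50 reads per region gave 46.2% (87 loci). With 500 or more reads per locus it was 61.4% (75 loci). A minimum share of 2% gave 54.8% (118 loci), and joining within 10000 bases 53.1% (141 loci). Leaving out each library in turn gave 48.5% to 55.7%. A class not shown had a similar value with the 5' end close by. At its 47 loci the first distance was up to 100 bases and the second over 250 and up to 1000. With libraries summed, the 3' median was 52.1% there, against 55.7% at the 120 loci above. The distance classes were chosen with the data in view.

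**Figure D4:**
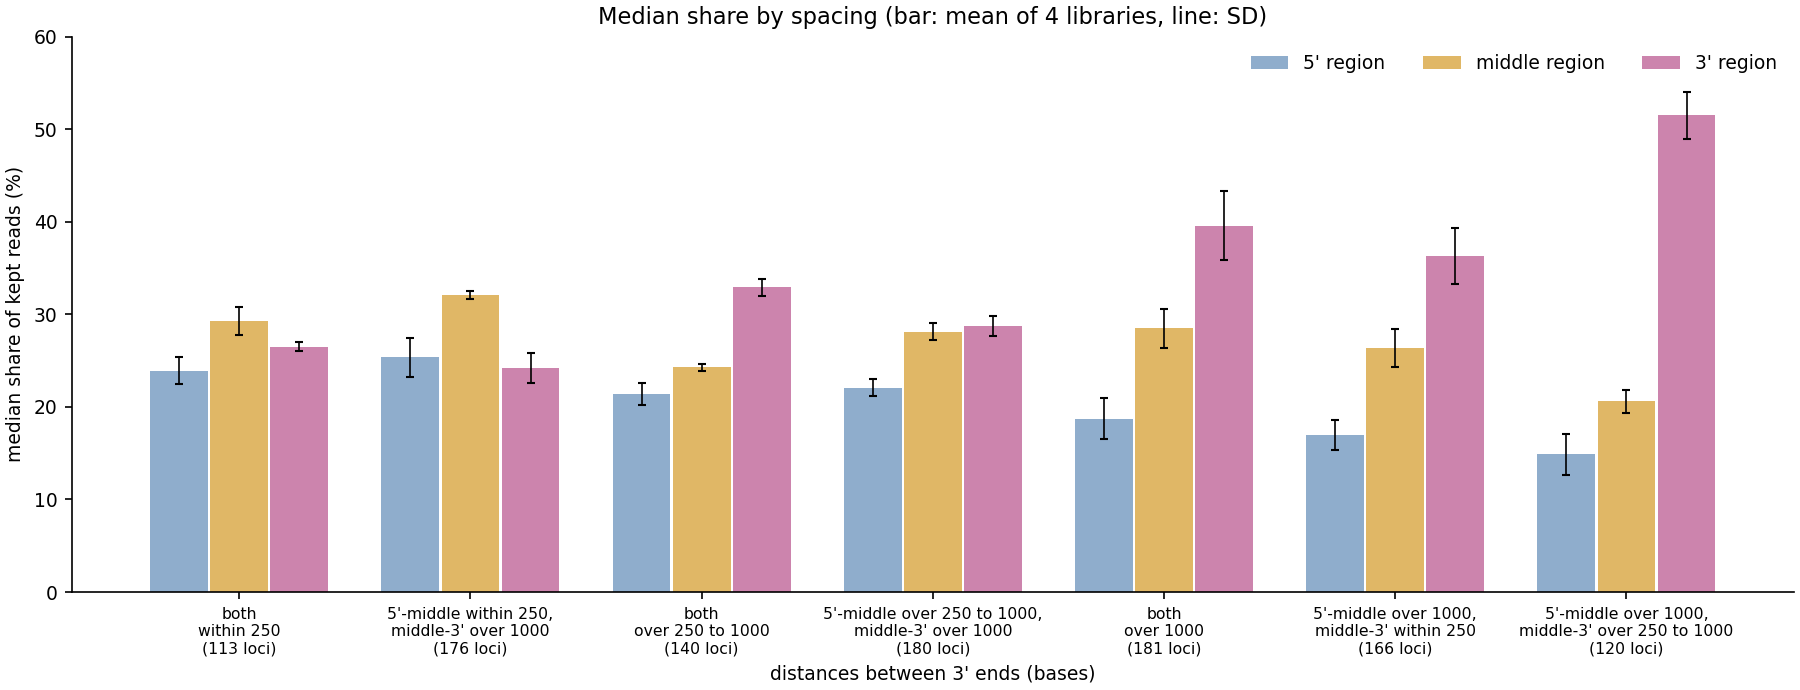
Median share of kept reads (%) of the 5', middle and 3' region in 7 classes of spacing, as the mean and SD (lines) of the 4 libraries, with the number of loci under each class. The 3' bar is highest, at 51.5%, where the first distance is over 1000 bases and the second over 250 to 1000, and lowest, at 24.2%, where the 3' end alone lies far away.

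The total span was less related to the 3' share. The median 3' share was 33.7% ± 0.528 at the 367 loci with a span of up to 1000 bases, 33.4% ± 1.04 at the 567 with over 1000 to 3000 and 34.4% ± 2.25 at the 359 with more (SD, n = 4). These differ by less than their spread. At the loci with over 3000 bases the 5' share by library was 20.1%, 20.7%, 16.6% and 16.8%. The middle share at these loci was 29.4% ± 1.19 (SD, n = 4). With up to 1000 bases it was 26.3% ± 1.17, and with over 1000 to 3000 it was 25.8% ± 0.684 (SD, n = 4). The middle share was thus higher at the longest spans in every library, a difference that was not tested.

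Regions of the 3 positions were alike in width. The median width was 31 bases for 5' regions, 32 for middle regions and 30 for 3' regions, against 27 for all regions of the table. Regions of 10 bases or fewer made up 42 of the 5' regions, 19 of the middle and 16 of the 3' regions, and 77 loci held one. When a region was the strongest of its locus its median width was 36, 36 and 34 bases at the 5', middle and 3' position, against 29, 29 and 27 otherwise. Width moved with read number in this way at every position.

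The loci lay on both strands, 694 on the plus and 599 on the minus strand, and the 3' region was the strongest at 42.9% and 43.5% of them. By chromosome, 3-region loci made up 11.6% of all loci with 100 or more kept reads (95% Wilson interval 11.1% to 12.3%). The share was 6.37% on chromosome 19 (46 of 722 loci, interval 4.81% to 8.39%) and 6.64% on chromosome 22 (18 of 271, interval 4.24% to 10.3%). It was 16.2% on chromosome 21 (19 of 117, interval 10.6% to 24.0%) and 15.2% on chromosome 4 (63 of 414, interval 12.1% to 19.0%). On chromosome 7 it was 8.13% (44 of 541, interval 6.11% to 10.7%). The intervals of chromosomes 7, 19 and 22 lie below that of all loci, and those of 21 and 4 overlap it. These chromosomes were chosen after their values were seen, and neighbouring loci are not independent.

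Weaker regions accompanied many of the loci. At 912 loci (70.5%) the 3 kept regions were the only ones in the table, while 381 held 826 further regions under the minimum. These lay between kept regions at 232 loci, upstream of the 5' region at 180 and downstream of the 3' region at 110. They had a median of 2.49% of the reads of their locus and together 3.40% of the reads of the 1293 loci. At those 110 loci, the 3' region is thus the most downstream kept region and not the most downstream region in the table. A region of the opposite strand ended within 2000 bases of the 3' region's end at 159 loci (12.3%) and of the 5' region's end at 103 (7.97%).

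The minimum share was also looked at in each library alone, without the read minima, which only 537 loci met for kept reads in library 2. All 3 regions held 5% or more of the kept reads at 1180 loci in library 1, 1094 in library 2, 1081 in library 3 and 1077 in library 4, and at 813 (62.9%) in every library. A kept region had no reads in some library at 45 loci. Close to the minimum, 173 loci had a region with 5% to under 6% of the reads. Just inside it, a locus at chr20:30386300-30389615 (plus strand, 4443 kept reads) had a region with 5.00% of all reads of the locus. Just outside it, one at chr12:16056004-16057390 (plus strand) had a further region just under the minimum and counted as a 2-region locus. The locus minimum of 100 kept reads left out 6 loci with 3 kept regions. The member with the fewest kept reads had 101, and the nearest locus below the minimum had 96. A minimum of 500 reads left 788 loci.

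Usage was then compared between libraries. Each kept region was tested against the other kept regions of its locus by Fisher's exact test, two-sided, in each of the 6 pairs of libraries, over all 13464 kept regions of the 5070 loci with 2 or more kept regions and 100 or more kept reads. Counts were thinned to the smallest library total, and p-values were adjusted by Benjamini-Hochberg within a pair. The test compares libraries, not conditions, and treats reads as independent molecules.

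Between libraries 1 and 2, 10 of the 1293 loci had a region called at an adjusted p under 0.05 (0.773%), against 0.414% of all loci tested. By region it was 14 of 3879 (0.361%), against 0.26% of all regions, of which 0.104% were higher and 0.156% lower in library 2. Between libraries 3 and 4 it was 1 locus, against 0.0592%, with 2 regions called against 0.0297% of all regions (0.0149% higher and 0.0149% lower in library 4). At an unadjusted p under 0.05, Fisher's exact test called 304 and 208 of the 3879 regions in these pairs. Such a threshold passes some regions by chance alone, and no matching share of all regions was counted for it. These 2 counts therefore do not show differences within the pairs. Between libraries 1 and 3, 264 loci (20.4%) had a region called, against 15.6% of all loci tested. The corresponding values were 213 loci (16.5%) against 13.4% for libraries 1 and 4, 355 (27.5%) against 22.1% for libraries 2 and 3, and 354 (27.4%) against 20.8% for libraries 2 and 4. A locus with 3 regions has more regions that can be called than one with 2. Counted by region, the shares were close to the background: 10.98% of the 3879 regions against 10.4% of all regions for libraries 1 and 3, 8.997% against 8.86% for libraries 1 and 4, 15.3% against 15.1% for libraries 2 and 3, and 15.2% against 14.1% for libraries 2 and 4. Without thinning, 535 loci were called between libraries 1 and 3 and 418 between libraries 1 and 4. In all, 495 loci (38.3%) had a call in some pair. No matching share of all tested loci was counted for these values, so they do not set the 3-region loci apart from other loci.

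The 3 positions were called about equally often, but in different directions. Between libraries 1 and 3 the 5' region was called at 140 loci, with the share lower in library 3 at 93 and higher at 47. The 3' region was called at 143, with the share higher in library 3 at 87 and lower at 56. The middle region was called at 143, higher at 59 and lower at 84. Of all regions tested, 4.98% were called higher and 5.46% lower in library 3. The pairs of libraries 2 and 3, 1 and 4, and 2 and 4 leaned the same way, while libraries 1 and 2, and 3 and 4, had too few calls to show a direction. From library 2 to library 3 the 5' share was lower at 124 loci and higher at 77, and the 3' share higher at 117 and lower at 80, while 7.36% of all regions were called higher and 7.73% lower.

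From library 1 to library 4 the 5' region was lower at 71 loci and higher at 41, and the 3' region higher at 74 and lower at 47 (4.35% of all regions called higher, 4.51% lower). From library 2 to library 4 these counts were 123 and 73 for the 5' region and 114 and 81 for the 3' region (6.89% higher, 7.23% lower). Loci with other numbers of regions leaned in the same direction: from library 1 to library 3 the distal region of 2-region loci was called higher at 189 and lower at 138. Pairs of libraries share a library with each other and are not independent of one another. The lean was not tested.

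**Figure D5:**
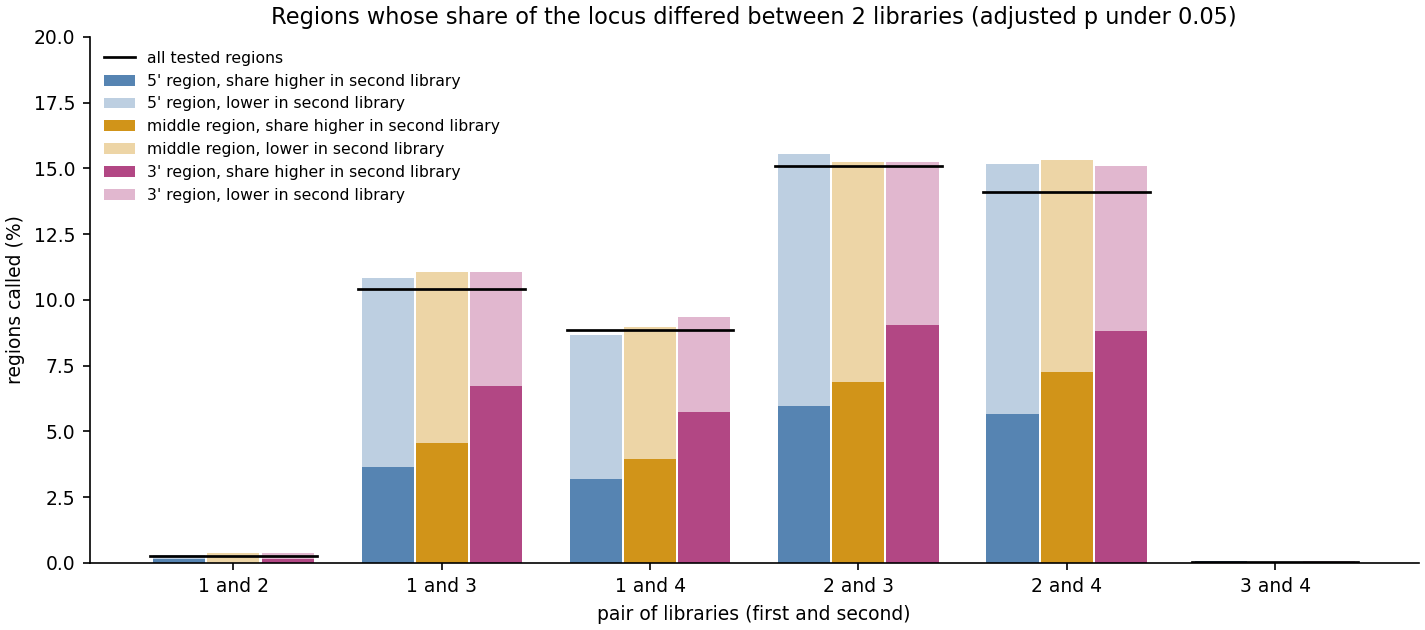
Percent of the 1293 loci at which the share of the 5', middle or 3' region differed between 2 libraries (Fisher's exact test, adjusted p under 0.05), for each pair, with dark bars for a higher and pale bars for a lower share in the second library of the pair; black lines give the percent of all 13464 tested regions called. Pairs 1 and 2 and 3 and 4 are close to 0, and in the other pairs the dark part is larger for the 3' than for the 5' region.

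Called regions moved by a median of 17.9 percentage points between libraries 1 and 3 and 18.9 between libraries 2 and 3. These sizes are large in part because the calls select large differences. Over the 3-region loci, called or not, the largest difference of a locus had medians of 8.37 and 11.2 percentage points in these pairs. Between libraries 1 and 2 this median was 6.33, and between libraries 3 and 4 it was 4.89. At the same depth, the chi-square over the 3 regions had a mean of 1.53 per degree of freedom between libraries 1 and 2 and 1.25 between libraries 3 and 4, where sampling alone gives 1. It was 4.29 to 7.52 in the other pairs. These means cover the 804 to 876 loci with every expected count of at least 5.

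The 5 loci with the most reads differed in which region led. At chr6:44218037-44221647 (plus strand, 39700 kept reads) the 3' region took 61.8%, 50.4%, 83.8% and 78.1% of the reads in libraries 1 to 4, and the 5' region 31.5%, 41.6%, 12.7% and 18.2%. The middle region, 1751 bases below the 5' end and 1693 above the 3' end, took 6.71%, 8.05%, 3.49% and 3.74%. Libraries 3 and 4 had more 3' usage, and less 5' and middle usage, than libraries 1 and 2, with no overlap, and 16 tests of its regions between libraries were called. At chr6:159186764-159187651 (minus strand, 37162 reads) usage rose in steps, with 7.20% ± 0.674 at the 5', 21.4% ± 2.62 at the middle and 71.4% ± 3.26 at the 3' region, 392 and 381 bases apart (SD, n = 4).

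The 5' region led at the next 3 of these loci. At chr16:89629473-89629898 (plus strand, 36246 reads) it took 82.9%, 83.3%, 60.5% and 65.0%, while the 3' region, 400 bases below, took 11.6%, 11.8%, 26.3% and 24.2%. The division between the library pairs was again without overlap. At chr19:2273208-2273509 (plus strand, 27492 reads) all ends lay within 231 bases. The 5' region took 57.7%, 59.9%, 48.8% and 49.8% there and the middle one 7.66%, 5.87%, 17.8% and 16.5%, while the 3' region stayed at 34.0% ± 0.550 (SD, n = 4). The 5' and middle ends were only 87 bases apart. With ends within 100 bases merged they counted as 1 region, which took 66.0% ± 0.550 (SD, n = 4). Whether these 2 regions are separate sites was not tested. At chr17:73126310-73132125 (minus strand, 23988 reads) usage fell in steps, with 64.6% ± 3.72, 25.9% ± 3.11 and 9.53% ± 0.697, and the 3' end lay 5023 bases below the middle one (SD, n = 4).

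Extreme shares were taken among the 530 loci with 100 or more kept reads in every library, and such loci lie near the 5% minimum by the rule. The highest 5' shares were 88.4% ± 1.85 at chr18:33754586-33760544 (plus strand), 88.2% ± 2.51 at chr14:93403256-93406232 (minus strand) and 88.1% ± 1.75 at chr7:100954185-100958111 (minus strand; SD, n = 4). No test between libraries was called at these 3 loci. The highest middle shares were 89.9% ± 3.73 at chr12:66358525-66360089 (plus strand), 88.1% ± 2.40 at chr11:18428926-18429769 (plus strand) and 87.3% ± 1.46 at chr4:186080792-186083724 (minus strand; SD, n = 4). At the chromosome 12 locus the 5' region took 2.77%, 1.90%, 8.70% and 6.75% by library. This region met the minimum of 5% through libraries 3 and 4, so the rule built in part of the difference.

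The highest 3' shares were 89.3% ± 2.25 at chr8:22877640-22879981, 89.1% ± 5.93 at chr20:17922218-17927797 and 88.9% ± 2.37 at chr17:54965256-54968571, all on the minus strand (SD, n = 4). At the chromosome 20 locus, libraries 1 and 2 gave no reads of 1 region. Its middle region, from 17922848 to 17922872, had 0, 0, 57 and 26 reads in libraries 1 to 4. A count of 0 among the 506 and 223 kept reads of libraries 1 and 2 allows a share of up to 0.593% and 1.35%, against 11.7% and 8.12% in libraries 3 and 4. The region met the minimum of 5% only through libraries 3 and 4, so the rule built in part of this contrast. Its 5' region, 4937 bases above, had 4.94%, 6.73%, 5.14% and 6.88%.

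The most even divisions among these 530 loci were found at 3. At chrX:153712048-153715680 (minus strand, 2575 reads) the regions took 35.2% ± 3.75, 34.2% ± 3.66 and 30.6% ± 2.69 from 5' to 3' (SD, n = 4). The 5' share was above the 3' share in each of the 4 libraries, by 39.3% to 26.9% in library 1 and by 31.4% to 30.7% in library 3, and no test between libraries was called. This evenness depended on the joining: the 3' share was 47.3% when regions were joined within 1000 or 2000 bases and 13.3% within 10000. At chr3:141644986-141645396 (plus strand, 1332 reads) the summed evenness hid a difference between libraries: the 3' region took 25.1%, 25.1%, 49.8% and 41.4%, and the middle region 37.5%, 37.5%, 15.4% and 27.0%. At chr19:7979353-7988145 (plus strand, 3346 reads) the middle region took 41.0%, 48.7%, 28.7% and 27.9%, with the 3 ends 4616 and 4157 bases apart. Joined within 1000 or 2000 bases, its 3' region was alone in its locus.

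Among the same 530 loci, the 3' region led at each of the 3 with the longest span. The longest, at chr10:75531905-75543150 (plus strand), had its ends 8075 and 3131 bases apart, with 28.3% ± 1.81 in the 5' and 5.72% ± 1.31 in the middle region (SD, n = 4). At chr11:65825861-65836394 (plus strand, 7793 reads) the 5' end lay 9935 bases above the middle one. The 3' region took 79.7%, 76.7%, 89.9% and 90.3% there. At chr9:15464051-15474163 (minus strand, 1914 reads) it took 58.1%, 50.7%, 72.5% and 75.2%, with the first distance 9506 bases and the second 512. In both of these loci libraries 3 and 4 had the higher 3' share, with no overlap.

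The 3 shortest of these 530 loci held their ends within 119 to 141 bases. At chr3:10195177-10195362 (plus strand, 1126 reads), with ends 42 and 77 bases apart, usage rose from 14.2% ± 1.16 through 30.2% ± 2.18 to 55.6% ± 2.14 (SD, n = 4). At chr12:98944001-98944167 (plus strand, 3896 reads) the middle region led with 73.7%, 74.8%, 70.8% and 74.1%. No test between libraries was called at either. At chr17:55198566-55198715 (plus strand, 728 reads) the 3' region took 77.3%, 78.2%, 92.2% and 93.4%, and 4 tests were called. With ends within 100 bases merged, each of these 3 loci had a single kept region with 100% of the reads. Whether regions this close are separate sites was not tested.

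Besides the chromosome 6 locus above, the most calls between libraries were found at 2 further loci. At chr19:18680161-18686289 (plus strand, 23110 reads, 14 calls) the middle region took 71.6%, 64.5%, 81.7% and 79.9%, and the 5' region, 5857 bases above, took 20.4%, 26.5%, 13.8% and 15.1%. At chr3:23961024-23962351 (plus strand, 16885 reads, 13 calls) the lead changed between libraries. The 5' region took 36.7%, 28.1%, 54.7% and 51.4% there and the middle region, 234 bases below, 53.7%, 56.6%, 38.9% and 41.5%. The 3' region stayed the lowest with 9.61%, 15.3%, 6.43% and 7.09%. At the first of these loci libraries 3 and 4 shifted toward the middle region, away from both others. Its 3' region, 231 bases below the middle one, took 7.94%, 8.96%, 4.57% and 4.99%. Its middle share was 91.7% when regions were joined within 1000 or 2000 bases, or without regions of 10 bases or fewer. At the second locus libraries 3 and 4 shifted toward the 5' region, so the shift did not run toward the 3' end at every locus.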

How the data were processed

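Poly(A)+ RNA of 4 libraries of one line was sequenced at its poly(A) sites with an anchored oligo(dT) primer, per the labels' protocols. Internal runs of A can be primed as well. Raw read counts were deposited by the authors, 1 line per region and 1 column per library, per the file headers; Bowtie2 2.2.5 and hg19 are named in the submitters' processing notes. The joining of reads into regions and the treatment of duplicates are not given in the sources used here. Positions are printed as deposited; whether they count from 0 or 1 is not stated.

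From the counts, loci, kept regions and shares were computed as the report states, with Python 3.11.15, pandas 2.3.3 and scipy 1.17.1. The 3' end of a region is its end on the plus and its start on the minus strand. Library totals of 2163977 to 5713530 reads set the precision; Wilson and zero-count limits (3 counts) reflect counting error alone. The tests between libraries were tested on simulated data. The loci, distance classes and lists were chosen with earlier results of these data known. Named loci follow a rule: the 5 with most reads and, among those with 100 or more kept reads in every library, 3 each by highest 5', middle and 3' share, evenness, longest and shortest span, and calls between libraries. Planned gene lists, poly(A) signals and cell markers needed hg19 annotation and were not analysed here. Alternatives varied joining distance, minima, merging, width and libraries.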

Additional observations from a re-analysis of the deposited data

Results flagged for a closer look

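Values by library were screened for a single library distant from the rest. They were the shares of the named loci and the medians and percents over all loci or classes of them. Of 137 values 4 met the criterion, where chance alone would mark about 1 in 20. All 4 were shares of named loci. The 5' share at chr11:18428926-18429769 was 3.28% in library 2, against 5.61% to 5.97% in the others. The middle share at chr8:22877640-22879981 was 9.21% in library 2, against 4.48% to 4.83%. At chr3:10195177-10195362 the 5' share was 12.5% in library 2, against 14.7% to 15.0%. The 3' share at chr4:186080792-186083724 was 9.39% in library 4, against 6.08% to 6.19%.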

How the results depend on the processing

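The median share rose from the 5' through the middle to the 3' region in 13 of 13 alternative settings. The percent of loci with each region strongest kept this order in all 13 as well. None of the 3 differences between positions reversed. The order of the neighbour pairs did reverse. In the main setting the middle region's share against the 5' one exceeded the 3' share against the middle. It fell below when regions were joined within 1000 bases (53.9% against 54.0%) or 2000 bases (53.9% against 55.6%). With 50 reads per region it was also lower (53.4% against 54.4%). The members themselves depended on the setting: the share of the 1293 loci found with the same 3 ends ran from 38.7% (joined within 1000 bases) to 94.8% (without library 2). In what follows, medians and strongest positions are in the order 5', middle and 3', and neighbour shares are those of the downstream region. Joined within 1000 bases, there were 831 loci, with medians of 22.8%, 26.4% and 31.9%, the 5' and middle regions strongest at 27.1% and 30.6%, distances of 264 and 300 bases and a share of the middle region against the 5' one of 53.9%. Within 2000 bases the medians were 21.8%, 25.5% and 32.3%, the strongest 27.0%, 31.1% and 42.0%, the distances 407 and 471.5 bases and the neighbour shares 53.9% and 55.6%. Within 10000 bases the 3' median was 32.1%, the middle and 3' regions were strongest at 34.0% and 41.3%, the distances were 778.5 and 876.5 bases, and the 3' share against the middle was 53.3%. A 2% minimum gave 5' and middle medians of 16.6% and 24.4%, the 5' region strongest at 23.1% and a 3' share against the middle of 56.1%; a 10% minimum gave 26.1% and 29.8%, the 5' and 3' regions strongest at 27.3% and 39.7%, and neighbour shares of 53.3% and 51.7%. With 50 reads per region, the 5' and 3' medians were 22.1% and 32.8%, the 5' and middle regions strongest at 27.0% and 30.9%, and the share of the middle against the 5' region 53.4%. With 500 reads per locus, 788 loci had medians of 17.3%, 24.5% and 32.7%, the 5' region strongest at 23.3% and neighbour shares of 57.9% and 56.4%. With ends within 100 bases merged, the middle and 3' medians were 27.5% and 32.4%, these regions strongest at 34.1% and 41.6%, the distances 731.5 and 880 bases and the 3' share against the middle 52.7%. Without regions of 10 bases or fewer, the 5' median was 20.8%. The cause of these shifts was not tested.

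Leaving out each library in turn, the number of loci ran from 1209 to 1273, the medians from 19.1% to 20.2%, 26.5% to 27.5% and 32.8% to 34.9%, the strongest positions from 23.1% to 24.4%, 32.6% to 33.9% and 41.7% to 44.3%, the distances from 548 to 568 and 669 to 695 bases and the neighbour shares from 56.2% to 56.8% and 53.8% to 55.7%. With 3 libraries the smallest sign-flip p is 0.25. Loci called between libraries numbered 17, 535, 418 and 4 in pairs 1 and 2, 1 and 3, 1 and 4, and 3 and 4 when counts were not thinned. At an adjusted p under 0.01 they numbered 6, 163, 139 and 235 in pairs 1 and 2, 1 and 3, 1 and 4, and 2 and 4. The share of all tested loci was not counted under these settings, so the numbers describe the 3-region loci alone. No paired analysis was possible because the 4 libraries form a single group.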
